A study of Saccharomyces cerevisiae with 2 samples.

Results

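Transfer RNA genes without an intron whose anticodon begins with uridine or cytidine were examined in a crosslinking study of the yeast protein Bud22, a nucleolar protein required for assembly of the small ribosomal subunit. The first anticodon base, position 34, is the wobble base that faces the third base of the codon. Members were taken by name from the tRNA rows of both libraries: anticodons beginning with U or C, without the families known to carry an intron, plus genes known by a symbol, such as IMT1 or CDC65, whose known anticodon fits. The rule gave 93 genes of 2635 named features with a row in either library. One of them, tR(UCU)Q1, lies in the mitochondrial genome in the R64 gene table, had 0 reads with Bud22 against 1 read in the control, and was set aside. Of the 92 nuclear genes, among 274 nuclear tRNA genes with a row, 91 fell into 19 families, 9 with U34 and 10 with C34. The gene tM(CAU)C carries a methionine anticodon that does not say whether it is an initiator or an elongator, and it was kept outside the families. The 23 members with a symbol in the R64 table have gene lengths of 72 to 84 nucleotides. The other members were not matched to it.

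The assay was CRAC, UV crosslinking followed by cDNA analysis, which purifies a tagged protein under denaturing conditions and sequences the RNA crosslinked to it. The Saccharomyces cerevisiae strain with Bud22 fused to a His-TEV-protein A tag gave 1 library, and untagged W303 wild type, which shows what the purification recovers without a bait, gave 1 library. Both cultures took up 4-thiouracil, a photoreactive form of uracil, for 4 h in medium without uracil and were irradiated at 365 nm for 30 min. One label of the control disagrees with the rest, since its growth protocol mentions the tagged strain where the other labels give wild type. With 1 library per group there is no replicate error and no test, and each comparison is between these libraries, not between conditions.

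A tRNA that begins its anticodon with U usually has that uridine modified. In yeast the Elongator complex starts the modification, and the tRNAs for glutamate (UUC) and glutamine (UUG) also receive a sulfur. A tRNA that begins with C pairs with codons ending in G, so most C34 tRNAs back up a U34 partner of the same amino acid. Methionine is a special case. Its initiator tRNA is carried by eIF2 to the small subunit to start translation, and its elongator tRNA, with the same anticodon, is brought by eEF1A to the elongating ribosome.

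Sense read counts summed over named features were 215982 with Bud22 and 132895 in the control. These sums exceed the mapped reads, 188065 with Bud22 and 97270 in the control, as a read can count at more than 1 feature. The column headed as a number of reads was much smaller, 5920 over the same features with Bud22 against 37130 in the control, and is read here as distinct read entries. Bud22 reads are therefore 36.5 per entry against 3.58 in the control, and reads of 1 entry are not independent. All 95% intervals are exact, cover counting error only and are too narrow for reads, so entries are given beside reads. A read counts at every gene copy it matches, so each family is represented by its most counted copy. Ratios are shares of all named features, Bud22 over control, unless another total is named. No library of total RNA was analysed here, so more crosslinking and more of a tRNA in the cell cannot be told apart. No member had an antisense read in either library.

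Among the member families, 11 had reads in the Bud22 library and all 19 had reads in the control. By gene, 66 of the 91 members in families had Bud22 reads. Outside the members these were 66 of 68 intronless A34, 47 of 54 intronless G34 and 21 of 60 intron-containing tRNA genes. Every one of these genes had control reads, so a lack of Bud22 reads was not particular to the members. The families summed to 881 reads with Bud22 against 814 in the control, giving a ratio of 0.666 (interval 0.605 to 0.733). They summed to 46 entries with Bud22 against 290 in the control, giving a ratio of 0.995 (0.712 to 1.36). The group was thus lower by reads over this total, and by entries its interval included 1. The total counts every gene copy. In it, copies of intronless A34 tRNAs summed to 108760 reads with Bud22 against 26305 in the control. Without isoleucine tI(AAU) they summed to 16001 against 3949. Copies of tRNAs with an intron summed to 22157 against 3723, and to 389 against 2626 without tyrosine tY(GUA). Read ratios over named features thus depend on these 2 families, and a named total without their copies was not computed. Reads per entry were 19.2 with Bud22 and 2.81 in the control for these families.

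**Figure D1:**
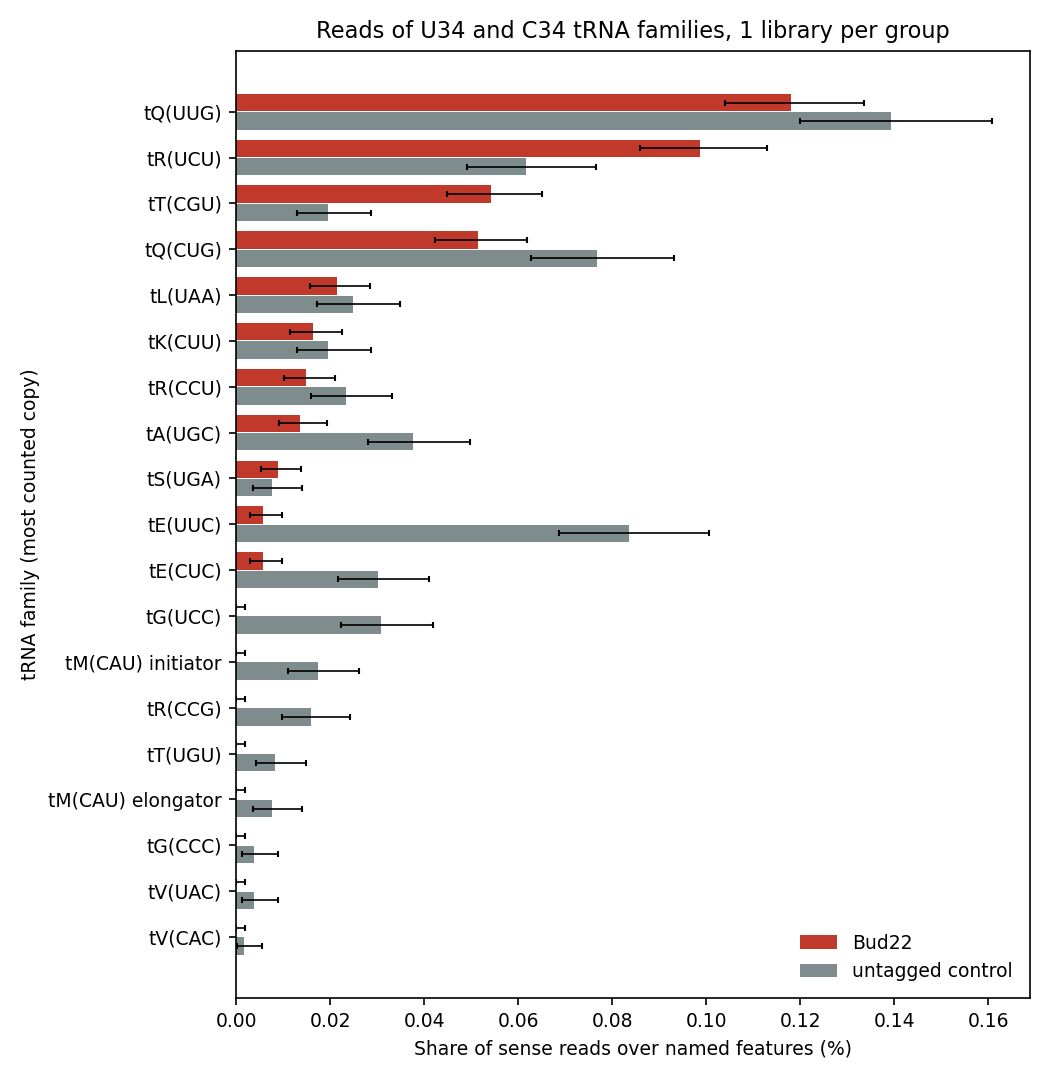
Share of sense reads over named features in percent for the most counted copy of each of the 19 families, with Bud22 (red) above the untagged control (grey). Error bars are exact 95% intervals for counting error, and 8 families at the bottom have no Bud22 read.

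The Bud22 reads were concentrated in few families. Glutamine tQ(UUG), arginine tR(UCU), threonine tT(CGU) and glutamine tQ(CUG), the 4 families with at least 5 Bud22 entries, held 79.0% of the members' reads with Bud22 and 48.5% in the control. By entries they held 73.9% with Bud22 and 40.7% in the control. These 4 were picked by their Bud22 entries, so this contrast is a description only. Ranked over the 19 families, the libraries had a Spearman correlation of 0.67 by reads and 0.73 by entries, across families that share the depth and copy number of a library. Gene copy number, which in yeast is known to follow tRNA abundance, correlated weakly with the family values, with a Spearman correlation of 0.22 for reads with Bud22 and 0.35 for reads in the control.

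Families with 10 or more counts over both libraries were counted as measured, and one was called higher or lower when its ratio was 2-fold or more from 1 and the interval left out 1. Of 16 families measured by reads, 8 were lower (50.0%), against a background of 48.6% of the 37 measured tRNA families and 49.4% of the 494 measured named features. The members' share of lower calls was thus near the background. A single family was higher (6.25%), against 18.9% of all tRNA families and 23.7% of named features. All background sets given here include the members. Gene by gene, 1 of 80 measured members was higher (1.25%), against 22.5% of all tRNA features, and 35 were lower (43.8%), against 40.6%. Copies of 1 family share reads and are not separate observations. By entries, 1 of 11 measured families was higher (9.09%), against 20.7% of the 29 measured tRNA families, and 1 was lower (9.09%), against 3.45%, which is that same family. Gene by gene by entries, 1 of 66 measured members was higher (1.52%), against 22.1% of tRNA features and 17.5% of named features. Of the 80 members measured by reads, 14 had no Bud22 read (17.5%), close to the 19.7% of tRNA features and below the 32.2% of named features. The median log2 ratio was -1.07 by reads over 16 families and 0.25 by entries over 11, beside -0.81 and 0.25 over all tRNA families. It thus differed in sign between the counts, but the 2 medians cover different sets of families.

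**Figure D2:**
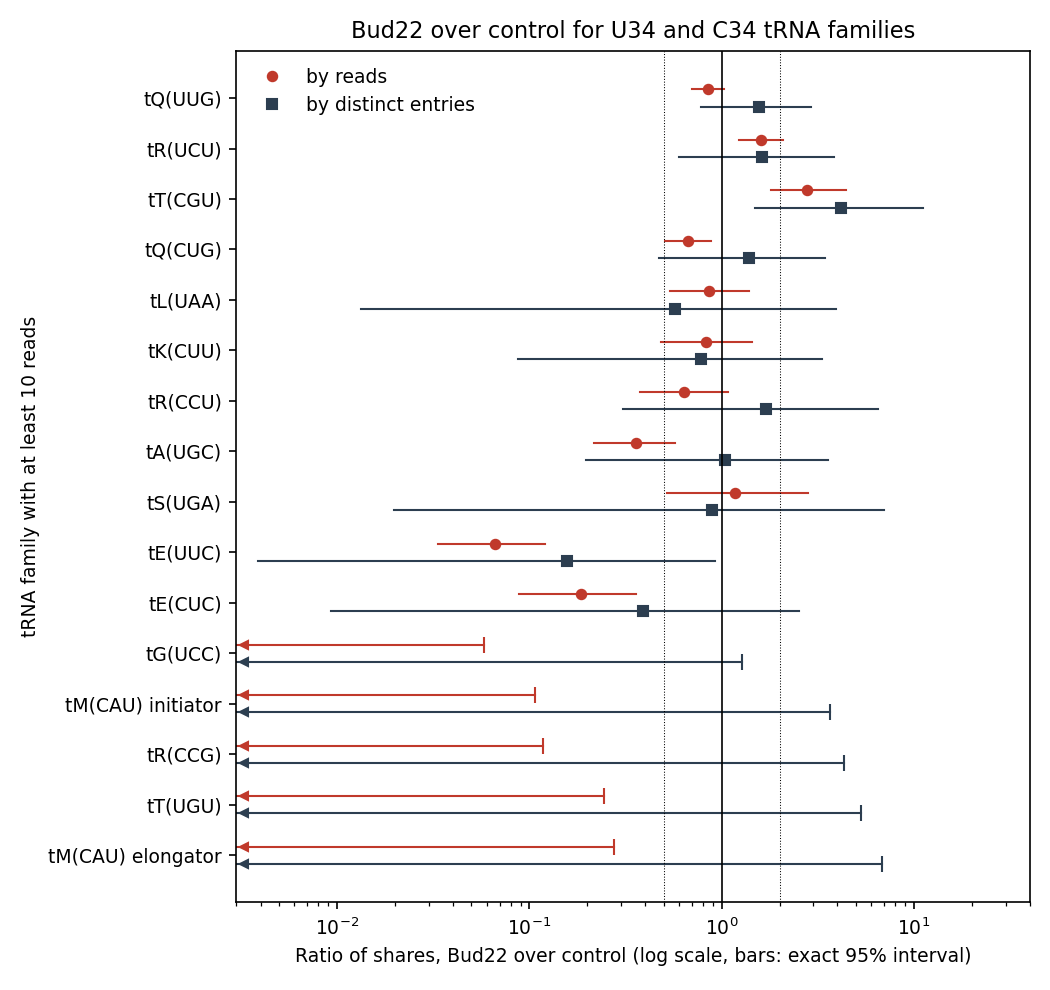
Ratio of shares, Bud22 over control, on a log axis for the 16 families with at least 10 reads, by reads (red circles) and by distinct entries (dark squares), with exact 95% intervals. Dotted lines mark 2-fold either way, and an arrow to the left marks a family without a Bud22 read, with the upper bound as a tick. Only tT(CGU) lies above 2 by both counts.

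The only higher family was threonine tT(CGU), encoded by the single gene TRT2. TRT2 had 117 reads with Bud22 against 26 in the control, giving a ratio of 2.77 (1.80 to 4.41). It had 8 entries with Bud22 against 12 in the control, giving a ratio of 4.18 (1.48 to 11.1). The call depends on the total used, and over named features without rRNA the read ratio was 1.75. Over the total of tRNA families the read ratio was 1.57 (1.02 to 2.51) and the entry ratio 2.14 (0.759 to 5.69). With isoleucine tI(AAU) and tyrosine tY(GUA) left out of that total, after their values were seen, these were 3.26 (2.12 to 5.20) and 3.44 (1.22 to 9.15). Its U34 partner tT(UGU), which reads the ACA codon, had 0 reads with Bud22 at all of its 4 copies, and its most counted copy had 11 reads in the control, with an interval of the ratio that ended at 0.245. By entries tT(UGU) had 0 with Bud22 against 6 in the control, with an upper bound of 5.33, so a lower share was not detectable by entries. The U34 to C34 odds ratio for threonine was at most 0.0977 by reads and at most 1.73 by entries. The third threonine family, tT(AGU), which is not a member, had 185 reads with Bud22 against 40 in the control, giving a ratio of 2.85 (2.01 to 4.11). Its entries were 6 with Bud22 against 14 in the control, and that ratio of 2.69 had an interval of 0.847 to 7.45.

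Glutamine tRNAs held the most Bud22 reads of the members. The most counted tQ(UUG) copies had 255 reads on 13 entries with Bud22 against 185 reads on 52 entries in the control. The read ratio was 0.848 (0.699 to 1.03) and the entry ratio 1.57 (0.783 to 2.92), both including 1. Its C34 partner tQ(CUG) is encoded by the single gene CDC65, first known from a cell division cycle mutant. CDC65 had 111 reads on 6 entries with Bud22 against 102 reads on 27 entries in the control. Its read ratio was 0.670 (0.507 to 0.885), below 1 but short of 2-fold, and its entry ratio 1.39 (0.471 to 3.45). The U34 to C34 quotient for glutamine by reads was 2.30 with Bud22 against 1.81 in the control, an odds ratio of 1.27 (0.899 to 1.78), and 1.13 (0.349 to 4.02) by entries. Both intervals include 1, so a difference in the glutamine pair was not detectable at this depth.

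Arginine tRNAs differed from each other more. The most counted tR(UCU) copies had 213 reads on 7 entries with Bud22 against 82 reads on 27 entries in the control. The read ratio was 1.60 (1.23 to 2.09), with a value short of 2-fold, and the entry ratio 1.63 (0.598 to 3.83). Over the total of tRNA families the read ratio was 0.908, with an interval that included 1 and reached 1.19. HSX1, the single gene of tR(CCU), had 32 reads on 3 entries with Bud22 against 31 reads on 11 entries in the control, a read ratio of 0.635 (0.375 to 1.08) and an entry ratio of 1.71 (0.306 to 6.48), on opposite sides of 1. TRR4, the single gene of tR(CCG), had 0 reads with Bud22 against 21 reads on 7 entries in the control, with an upper bound of the ratio of 0.118 by reads and 4.35 by entries. Taking HSX1 and TRR4 as the C34 partners, the arginine odds ratio of U34 over C34 was 4.22 (2.46 to 7.27) by reads and 1.56 (0.301 to 10.5) by entries.

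Both glutamate families were lower by reads. The most counted tE(UUC) copy had 12 reads with Bud22 against 111 in the control, giving a ratio of 0.0665 (0.0334 to 0.121). It had 1 entry with Bud22 against 40 in the control, giving a ratio of 0.157 (0.00387 to 0.925), so it was the only family lower by entries as well. tE(CUC) had 12 reads on 1 entry with Bud22 against 40 reads on 16 entries in the control. Its read ratio was 0.185 (0.0882 to 0.359) and its entry ratio 0.392 (0.00935 to 2.52). The Bud22 counts of both families are equal, and the files do not show whether they are the same reads. Over the total of tRNA families the tE(UUC) ratio was 0.0378 by reads (0.0189 to 0.0687) and 0.0803 by entries (0.00198 to 0.474).

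Glycine families had no Bud22 read. The tG(UCC) genes are SUF1, SUF4 and SUF6, named after frameshift suppressor mutations. Each had 0 reads with Bud22, against 25, 28 and 41 reads on 14, 17 and 20 entries in the control. The ratio of SUF6 had an upper bound of 0.0579 by reads, while its entry bound of 1.27 lies above 1. At its control share, 3.19 entries would stand in a library of the Bud22 size. The tG(CCC) genes SUF3 and SUF5 had 0 reads with Bud22 against 5 and 1 reads in the control, and were too rare to compare. Valine tV(UAC) and tV(CAC) had 0 reads with Bud22 against at most 5 and 2 reads in the control, and were also too rare.

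Methionine tRNA was not recovered in the Bud22 library, either as initiator or as elongator. All 4 initiator genes, IMT1 to IMT4, had 0 reads with Bud22 against 23 reads on 8 entries each in the control. Among the 5 elongator genes, all had 0 reads with Bud22. In the control EMT3 and EMT4 had 10 reads on 5 entries each, and EMT1, EMT2 and EMT5 had 5 reads on 3 entries each. Equal counts among the IMT genes, and within each EMT set, are what reads shared by all copies would give, and which copy a read came from cannot be told. EMT3 overlaps a protein-coding feature in the R64 table, but has the same counts as EMT4, which does not. The gene tM(CAU)C had 0 reads with Bud22 against 23 reads on 8 entries in the control, the counts of the IMT genes.

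**Figure D3:**
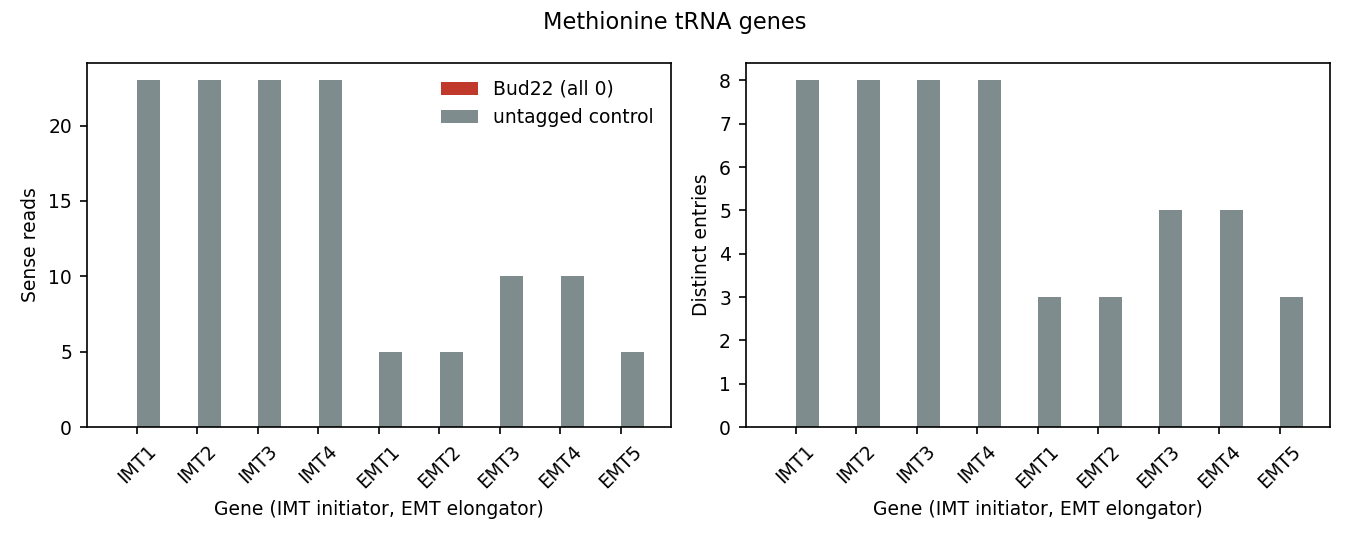
Sense reads (left) and distinct entries (right) at each of the 4 initiator (IMT) and 5 elongator (EMT) methionine tRNA genes, in the untagged control (grey). All Bud22 values are 0, so no red bar is drawn, and the IMT genes stand at 23 reads against 5 or 10 at the EMT genes.

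By reads, the ratio of initiator methionine tRNA had an upper bound of 0.107 and that of elongator methionine tRNA one of 0.275. A single Bud22 entry of the member families stood for 19.2 reads on average, so these bounds hold for reads and not for molecules. By entries, 0 with Bud22 against 8 and 5 in the control gave upper bounds of 3.67 and 6.84. At the control shares, 1.28 initiator entries and 0.797 elongator entries would stand in a library of the Bud22 size. Taking both together, 0 entries against 13 gave an upper bound of 2.06, so a lower methionine share was not detectable by entries. A Bud22 quotient of initiator over elongator could not be computed.

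In the control, initiator methionine tRNA had more reads than elongator tRNA. Per length, an IMT gene (72 nucleotides in R64) had 31.9 reads per 100 nucleotides, and the elongator genes (73 nucleotides) had 13.7 at EMT3 and EMT4 and 6.85 at the other 3. The quotient of the most counted copies was 2.30 by reads (1.05 to 5.41) and 1.60 by entries (0.462 to 6.22). By entries the interval includes 1, and this is a level in the background library only. Among the 11 families with a length in the table, the initiator stood next to tR(CCG), at 29.2 reads per 100 nucleotides in the control, and the elongator next to serine tS(UGA), at 12.2. Neighbours in the control's order had overlapping counting intervals, except tQ(CUG) and the next below it, tG(UCC) at 56.9. The highest in the control were tE(UUC) at 154.2 and tQ(CUG) at 141.7 reads per 100 nucleotides, while with Bud22 tT(CGU) at 162.5 and tQ(CUG) at 154.2 stood highest and tE(UUC) had 16.7.

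Of the remaining families, alanine tA(UGC) was lower by reads, and lysine tK(CUU), leucine tL(UAA) and serine tS(UGA) passed no call. tA(UGC) had 29 reads on 3 entries with Bud22 against 50 reads on 18 entries in the control, a read ratio of 0.357 (0.218 to 0.575). Its entry ratio was 1.05 (0.197 to 3.58), so the direction differed between the counts. tK(CUU) had 35 reads on 2 entries with Bud22 against 26 reads on 16 entries in the control, a read ratio of 0.828 (0.485 to 1.43) and an entry ratio of 0.784 (0.0874 to 3.33). tL(UAA), which includes the suppressor gene SUP51, had 46 reads on 1 entry with Bud22 against 33 reads on 11 entries in the control, a read ratio of 0.858 (0.537 to 1.38) and an entry ratio of 0.570 (0.0132 to 3.92). Serine tS(UGA), the genes SUP16, SUP17 and SUP19, had 19 reads on 1 entry with Bud22 against 10 reads on 7 entries in the control, a read ratio of 1.17 (0.517 to 2.81) and an entry ratio of 0.896 (0.0199 to 6.97). tL(UAA), tS(UGA), tE(UUC) and tE(CUC) thus rested on 1 Bud22 entry each.

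Copies of a family often had the same counts. Of the families with reads in both libraries, tR(UCU), tQ(UUG), tE(UUC) and tK(CUU) held copies with differing counts. In tR(UCU), 7 copies had 213 reads with Bud22 against 82 in the control. The copies E, G3, K and M1 had 88 with Bud22 against 43 in the control, with ratios of 1.60 (1.23 to 2.09) and 1.26 (0.865 to 1.86) for these sets. In tQ(UUG), 7 copies had 255 reads with Bud22 against 184 or 185 in the control. tQ(UUG)B had 183 with Bud22 against 124 in the control, giving a ratio of 0.908 (0.719 to 1.15), and tQ(UUG)E2 had 26 with Bud22 against 22 in the control, giving a ratio of 0.727 (0.396 to 1.35). The sets of copies in each of these 2 families differed in reads, and the intervals of their ratios overlapped.

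In tE(UUC), all 14 copies including SOE1 had the same 12 reads with Bud22, and 13 of them had 109 to 111 in the control. tE(UUC)M had 53 control reads on 20 entries, and its ratio was 0.139 (0.0678 to 0.264). In tK(CUU), 12 copies had 34 or 35 reads with Bud22 against 26 or 27 in the control. The copies F and I had 0 reads with Bud22 against 9 reads on 5 entries each in the control, with an upper bound of 0.312 by reads and 6.84 by entries. The 13 members lower by entries, of 66 measured (19.7%), were all copies of tE(UUC). Over tRNA features 13 of 226 measured were lower by entries (5.75%), and these are the same 13 copies. Over all named features 12.6% were lower by entries. Copies of tE(UUC) share reads and count as 1 observation.

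**Figure D4:**
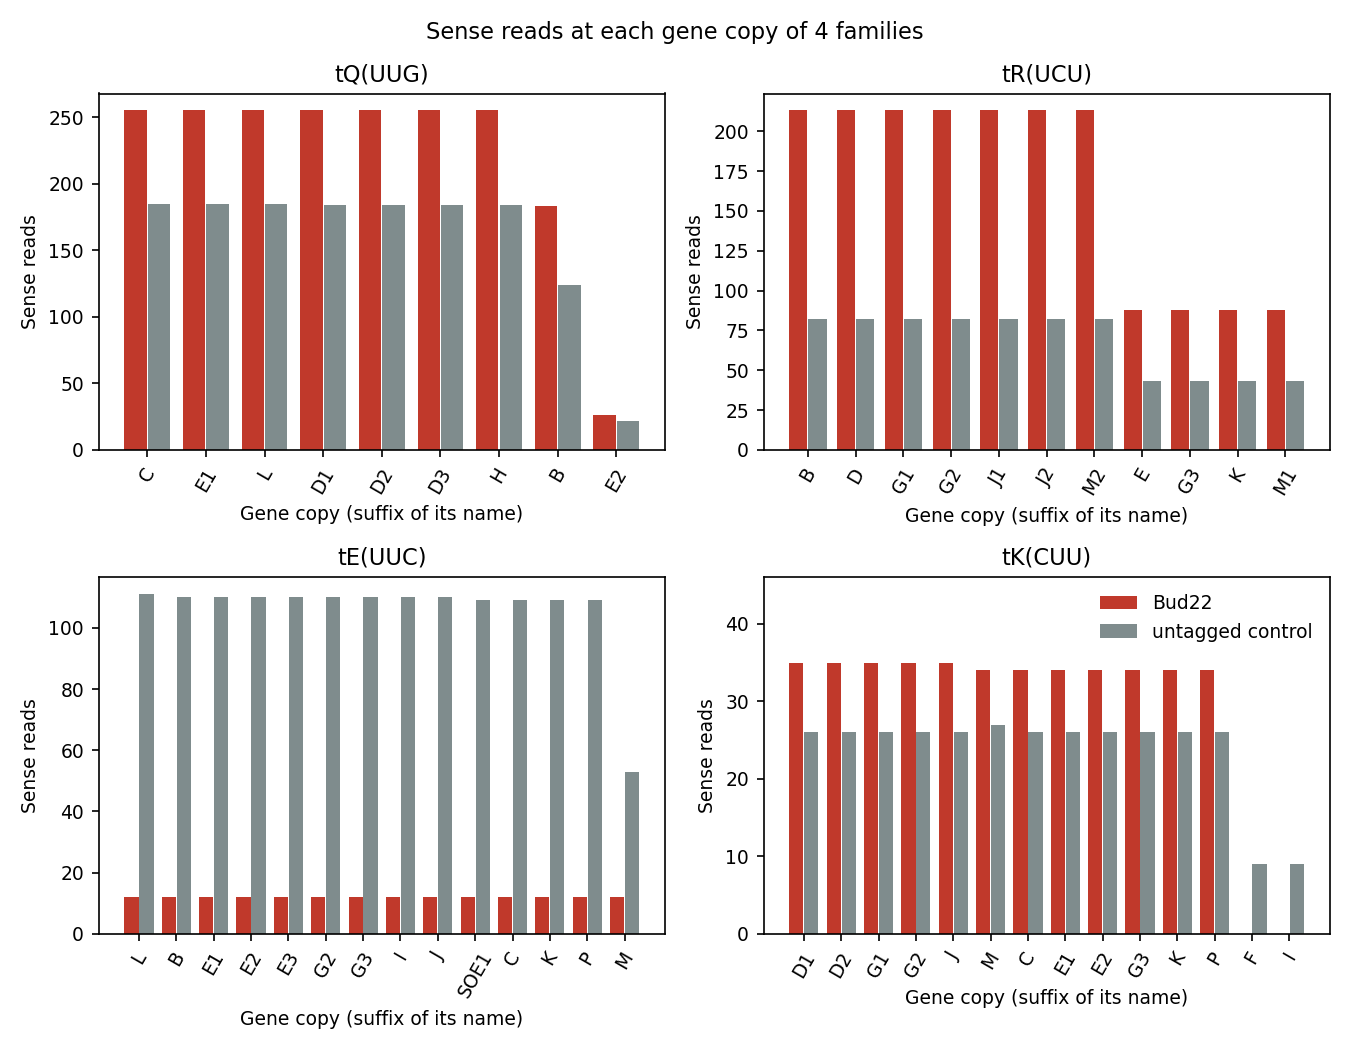
Sense reads at each gene copy of tQ(UUG), tR(UCU), tE(UUC) and tK(CUU), with Bud22 (red) left of the untagged control (grey). Counts are not scaled for depth, and the Bud22 library holds more reads over named features. Blocks of copies have equal or nearly equal counts, and tK(CUU)F and tK(CUU)I have no Bud22 read.

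Summed by wobble base, U34 and C34 families had ratios with overlapping intervals. The U34 families had 574 reads with Bud22 against 528 in the control, giving a ratio of 0.669 (0.593 to 0.754), and 26 entries against 184, giving a ratio of 0.886 (0.564 to 1.34). The C34 families had 307 reads with Bud22 against 286 in the control, giving a ratio of 0.660 (0.560 to 0.779), and 20 entries against 106, giving a ratio of 1.18 (0.695 to 1.92). The odds ratio of U34 over C34 between the libraries was 1.01 (0.825 to 1.24) by reads and 0.749 (0.382 to 1.49) by entries. Within amino acids the read odds ratio was above 1 for arginine, below 1 for threonine and for glutamate, at 0.360 (0.136 to 0.962), and not distinguishable from 1 for glutamine. By entries every one of these 4 intervals included 1. Families without a Bud22 read numbered 3 of 9 with U34 and 5 of 10 with C34. Outside the members, tRNAs such as tH(GUG), tP(AGG) and tK(UUU) also had no Bud22 read. Among them tV(UAC), with U34, and tG(CCC) and tV(CAC), with C34, had under 10 reads over both libraries and were not measured.

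Grouped by the known wobble modification, the U34 families had entry intervals that all included 1. Families with the sulfur-containing mcm5s2U, tE(UUC) and tQ(UUG), had a read ratio of 0.555 (0.469 to 0.657) and an entry ratio of 0.954 (0.502 to 1.68). Within that pair the read ratio of tE(UUC) was far below that of tQ(UUG), as given above. Families with mcm5U, tR(UCU) and tG(UCC), had 1.07 (0.849 to 1.34) by reads and 0.934 (0.356 to 2.08) by entries, with all Bud22 reads at tR(UCU). Families with ncm5U, the alanine tA(UGC), valine tV(UAC), serine tS(UGA), threonine tT(UGU) and leucine tL(UAA) families, had 0.531 (0.398 to 0.706) by reads and 0.697 (0.216 to 1.75) by entries.

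Set against the other tRNAs, the members took a lower share of tRNA with Bud22, by an amount that depends on isoleucine tI(AAU) and tyrosine tY(GUA). Taking all tRNA families with 1 copy each, they held 5.04% of reads with Bud22 (4.72 to 5.37) against 13.3% in the control (12.5 to 14.2), or a ratio of 0.378 (0.343 to 0.416). By entries they held 14.2% with Bud22 (10.6 to 18.5) against 28.0% in the control (25.3 to 30.8), or a ratio of 0.509 (0.365 to 0.697). Shares within tRNA are bound to each other, and tI(AAU) and tY(GUA) together held 79.2% of tRNA reads with Bud22 against 56.8% in the control, and 53.3% of entries with Bud22 against 24.9% in the control. With both families left out of the total, after their values were seen, the members held 24.2% of reads with Bud22 against 30.8% in the control, or a ratio of 0.785 (0.713 to 0.865). By entries they then held 30.5% with Bud22 against 37.2% in the control, or a ratio of 0.818 (0.586 to 1.12), and a lower share was not detectable. Over the total of all tRNA families, intronless G34 tRNAs also took a lower share. Their ratios were 0.354 (0.324 to 0.386) by reads and 0.696 by entries (upper end 0.952), and these intervals overlap those of the members over that total. Intronless A34 tRNAs, which carry inosine and include tI(AAU), had 1.18 (1.14 to 1.22) and 1.42 (1.17 to 1.71), and tRNAs with an intron, which include the tyrosine genes, had 1.95 (1.78 to 2.15) and 1.38 (1.02 to 1.85). Leaving tY(GUA) out of its group alone, after its value was seen, kept both families in the total. The tRNAs with an intron then had 0.136 (0.112 to 0.166) by reads and 0.297 (0.144 to 0.550) by entries. Over that full total, this read interval lies below that of the members, and the entry intervals overlap. With tI(AAU) likewise left out of its group only, after its value was seen, A34 tRNAs had 1.28 (1.15 to 1.42) by reads and 1.003 (0.701 to 1.41) by entries.

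**Figure D5:**
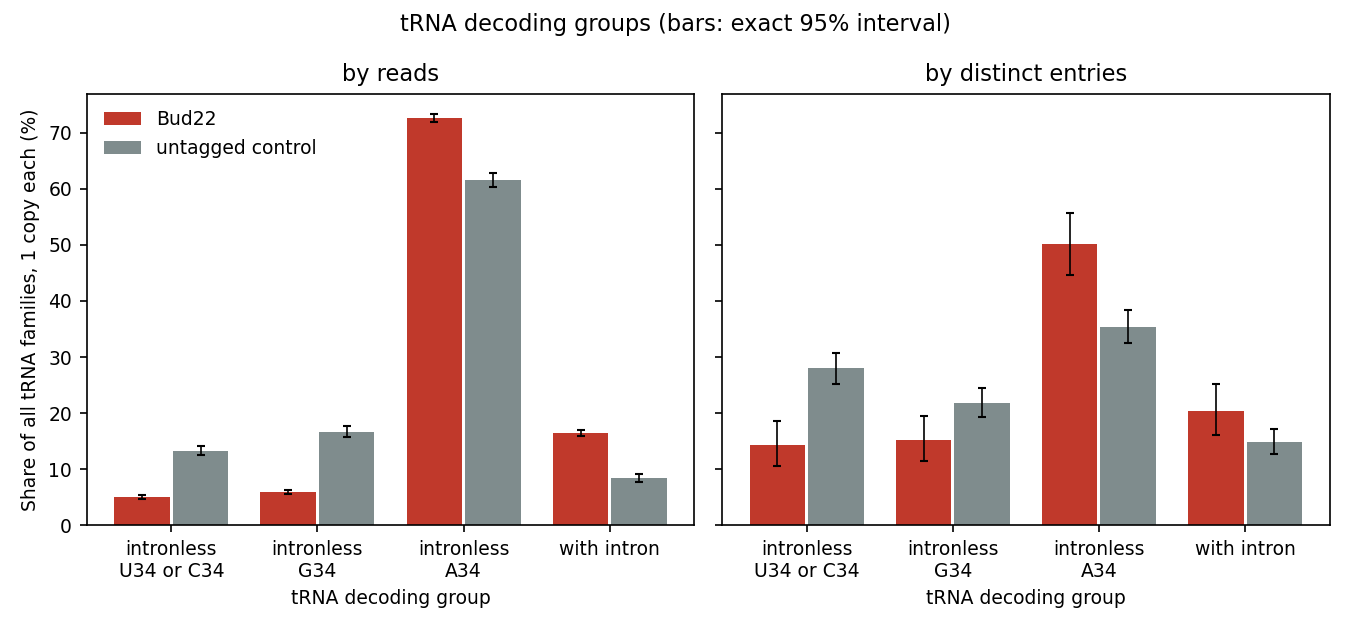
Share of all tRNA families, 1 copy each, in percent by reads (left) and by distinct entries (right) for 4 decoding groups, with Bud22 (red) left of the untagged control (grey) and exact 95% intervals. The U34 and C34 families hold 5.04% with Bud22 against 13.3% in the control by reads, and 14.2% against 28.0% by entries.

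Other RNA polymerase III transcripts and mRNAs of tRNA factors gave little to compare with. Of 12 listed polymerase III transcripts outside tRNA, 9 were measured by reads, of which 0 were higher and 2 were lower, against 23.7% and 49.4% of all measured named features. The 9 hold 6 copies of the 5S gene with equal or nearly equal counts, which are not separate observations. The 5S gene RDN5-1 had 908 reads with Bud22 against 711 in the control, giving a ratio of 0.786 (0.712 to 0.868), and the signal recognition particle RNA SCR1 had 105 with Bud22 against 47 in the control, giving a ratio of 1.37 (0.966 to 1.98). The lower ones were RPR1, the RNA of RNase P that trims tRNA 5′ ends, with 0 reads with Bud22 against 10 in the control, and the snoRNA SNR52 with 6 against 11. By entries RPR1 had 0 with Bud22 against 2 in the control, with an upper bound of 33.4. SNR52 had 1 entry against 6, a ratio of 1.05 (0.0227 to 8.62). The entry ratio was 0.747 (0.493 to 1.09) for RDN5-1 and 1.25 (0.375 to 3.34) for SCR1. All 4 entry intervals thus included 1. Of 25 listed mRNAs for wobble uridine modification and initiator tRNA factors, none had a Bud22 read and 8 had control reads. Among all measured named features, 32.2% had no Bud22 read. Apart from URM1, the listed mRNAs had at most 5 control reads each, too few to compare. The only one measured was URM1, the sulfur carrier for the thiolated wobble uridine, with 0 reads with Bud22 against 91 reads on 21 entries in the control. It was lower by reads, as were 49.4% of all measured named features, and its entry bound lies above 1.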

How the data were processed

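The deposited values are raw counts of sense and antisense reads per annotated feature, made by the authors with pyReadCounters of Counters version 1.2.1 from alignments and a yeast annotation, per the file headers. A further deposited count per feature, headed as a number of reads, was read as distinct entries over both strands because it never exceeded the strand counts, and was limited to the sense count. The version and settings of the aligner, trimming, removal of duplicates, build and annotation were not given in the sources used here.

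Intergenic rows were left out of totals. For a count of 0 a floor of 3 reads was set, or 0.00139% of named reads for Bud22 and 0.00226% for the control. This floor takes reads as independent and is below the 19.2 reads per Bud22 entry of the members. The upper bounds given here are ends of exact intervals instead. Families were the nuclear genes of 1 anticodon, with initiator and elongator methionine apart and genes known by a symbol placed by known identity, and tM(CAU)C was added only to sums over copies. The row tX(XXX)D names no anticodon and was in no family. The most counted copy was taken by its reads over both libraries. Ratios have exact conditional binomial 95% intervals, shares Clopper-Pearson intervals, and quotients exact conditional odds ratio intervals (Python 3.11.15, SciPy 1.17.1). Medians used a pseudocount of 0.5. Interval functions were tested on simulated data. All families were named, with the IMT and EMT genes singly. Members, lists and alternatives were chosen with earlier results of these data known. Without replicates, no test was run.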

Additional observations from a re-analysis of the deposited data

How the results depend on the processing

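The members' ratio of 0.666 moved most with the total used. It was 0.378 over the total of tRNA families, 0.420 over named features without rRNA, 0.560 over mapped reads, 0.603 with the least counted copy, 0.995 by distinct entries and 0.509 by entries over the total of tRNA families. With tI(AAU) and tY(GUA) left out of that total it was 0.785 by reads and 0.818 by entries. The last 3 of these and the least counted copy were chosen after seeing the data. The U34 over C34 odds ratio was 0.749 by entries. Higher families numbered 0 over the total of tRNA families, without rRNA, with at least 4-fold and by entries over the tRNA total, against 1. Lower families numbered 13 over the tRNA total, 4 with at least 30 counts, 1 by entries, 2 by entries over the tRNA total and 1 by entries over it without tI(AAU) and tY(GUA), against 8. The tA(UGC) and tQ(CUG) ratios turned to 1.05 and 1.39 by entries, the tQ(CUG) ratio to 1.15 by entries over the tRNA total without tI(AAU) and tY(GUA), and the tR(UCU) ratio turned to 0.908 over the tRNA total and 0.832 by entries over it. Of 209 alternative family ratios, 179 stayed within the interval of the value given. A further 25 left an interval without reversing a value whose interval excluded 1, and 5 of these lay on the other side of 1. The cause of these changes was not tested. No paired analysis was possible because each group has 1 library. With 46 Bud22 entries over all members, entries set the limit on what can be told apart.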
